A study of Mus musculus with 9 samples.

Results

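The genes described here encode the machinery of mitosis: the spindle, the kinetochores that tie chromosomes to it, the checkpoint that watches that attachment, and the apparatus of cytokinesis. The members were 50 mouse genes fixed by symbol, and all 50 were found among the 48526 gene identifiers of the table. They were measured by RNA sequencing in the medial ganglionic eminence (MGE), the part of the embryonic ventral forebrain that gives rise to many cortical interneurons, at embryonic day 14.5 in C57BL/6 mice. All 9 libraries carry the Nkx2.1-cre driver and the Rosa26-YFP reporter. The 5 knockout libraries are Ctnnb1fl/fl in addition. Of the 4 controls, replicate 4 is Ctnnb1fl/wt, with 1 floxed allele, and replicates 1 to 3 have no floxed allele in their labels. Cre driven by Nkx2-1 sequence removes Ctnnb1, the gene for beta-catenin, only in cells with a history of that driver, so other cells of the tissue can still hold the gene. Per the labels' protocols either dissected tissue or gathered cells could have been the input, and nothing says whether each library is a separate embryo. The p-values therefore reflect only how far these libraries vary among themselves, which may be technical.

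In a cycling cell, cyclin-dependent kinase 1 with its cyclins A and B starts mitosis, Aurora and Polo kinases build the spindle, and the checkpoint holds back the anaphase-promoting complex until every kinetochore is attached. Transcripts of most of these genes are known to peak in G2 and M phase and to be low in cells that have left the cycle, under the control of B-MYB, FOXM1 and the DREAM complex. In the ganglionic eminences the dividing cells are radial glia of the ventricular zone and the progenitors of the subventricular zone, and their postmitotic daughters migrate away as neurons.

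Depth was alike in both groups, at inferred totals of 5120585 to 5569444 per library with 20274 to 22903 genes above 0. The totals sum whole multiples inferred from the scaled values and are not read counts given by the authors. Ctnnb1 (chromosome 9, 120929216 to 120960507) had 7103, 7660.5, 7133, 6572 and 5477 normalized counts in knockout replicates 1 to 5, against 9841, 9960.1, 9967 and 9545 in control replicates 1 to 4. It was lower in every knockout library than in every control, by 0.54 on the log2 scale (fold change -0.54, SE 0.0960, adjusted p = 0.000811 by limma). All 8 MGE and GABAergic markers were detected in all libraries, with 5 higher in knockout (Lhx6, Dlx1, Dlx5, Gad1 and Gad2), 0 lower and a median log2 fold change of 0.55. Of all genes tested, 17.2% were higher by the same rule. Leaving out 1 library gave 3 to 5 of these markers higher and 0 to 1 lower. Their summed level was 28508 to 36099.7 normalized counts in knockout and 18320.4 to 31181 in control, lowest in control replicate 1. Nkx2-1, which did not pass, averaged 4442 ± 782 in knockout and 5718 ± 1033 in control (SD, n = 5 and n = 4). Control replicate 1 stood apart in markers of neighbouring tissue. Those of cortex summed to 162, 182, 143, 334 and 523 normalized counts in knockout replicates 1 to 5. The cortex sum was 2353 in control replicate 1 and 54.8 to 156 in control replicates 2 to 4. Those of choroid plexus summed to 70.2, 408, 100, 310 and 376 in knockout replicates 1 to 5. The choroid plexus sum was 2846 in control replicate 1 and 19.1 to 76.7 in control replicates 2 to 4.

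All 50 mitotic genes were lower in knockout MGE than in control, and 0 were higher. Log2 fold changes, knockout minus control on log2(normalized count + 1), ran from -1.11 to -0.55 with a median of -0.79, so that knockout means stood at 47.4% to 68.9% of the control means. All 50 had an adjusted p under 0.05 (limma, Benjamini-Hochberg over 13780 genes, adjusted p from 0.000332 to 0.0172). Of all genes tested, 17.3% were lower by the same rule and the median log2 fold change was -0.01. For 48 of the 50, every knockout library lay below every control library, which held for 14.6% of all genes tested. The exceptions were Kif14 and Aspm. In bulk tissue, fewer dividing cells and less of these transcripts per dividing cell cannot be told apart. When control replicates 2 and 3 alone were kept as controls, 37 of the 50 passed and all 50 remained lower, with a median of -0.80. The 13 that did not pass had adjusted p from 0.0504 to 0.0943: Cdk1, Cdc25c, Cenpe, Cenph, Ndc80, Nuf2, Spc25, Cdc20, Kif18a, Kif20a, Kif20b, Anln and Top2a.

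**Figure D1:**
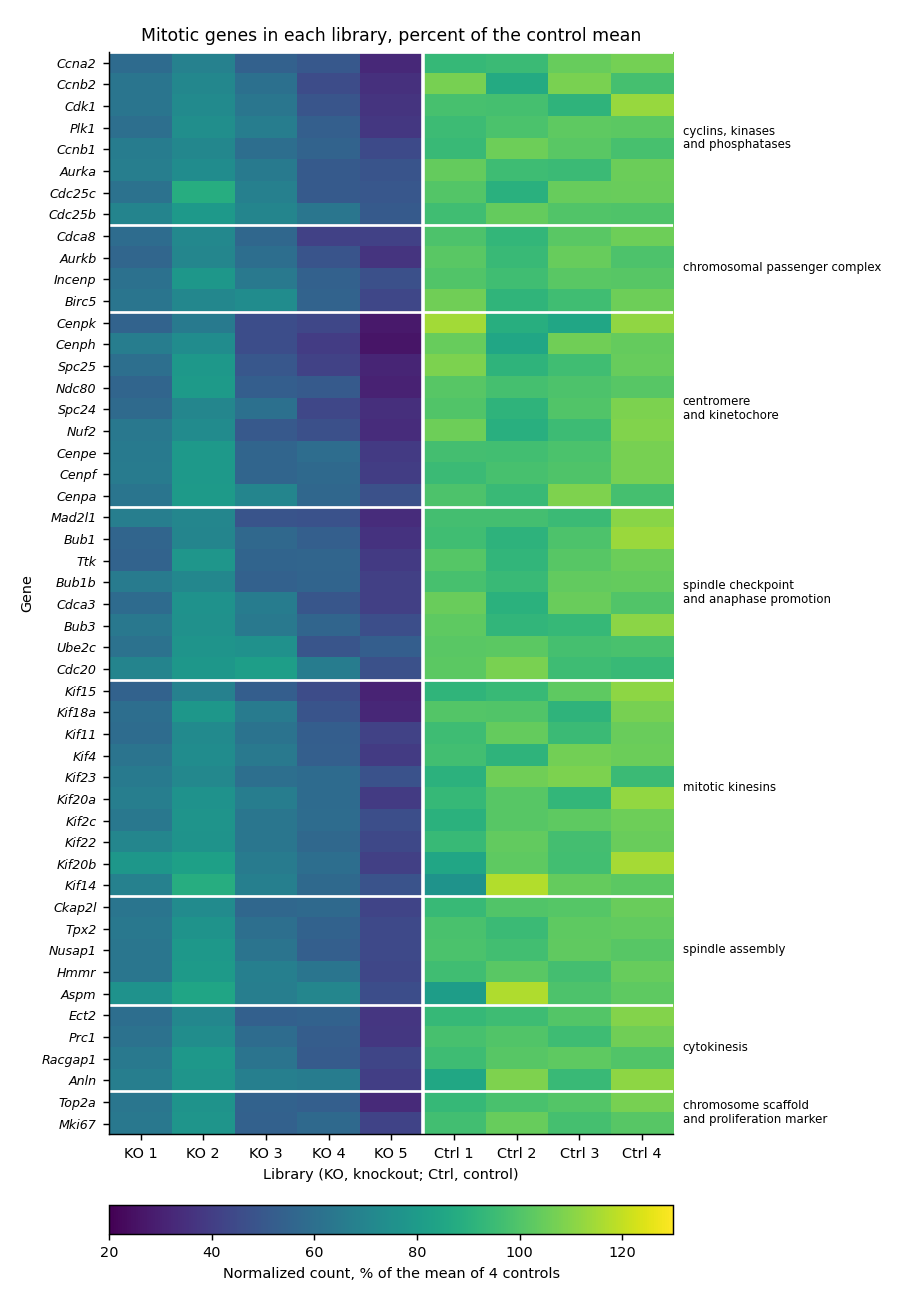
Normalized count of each of the 50 mitotic genes (rows, grouped by role) in each library (columns, 5 knockout then 4 control), as a percentage of the mean of the 4 controls of that gene. Knockout replicate 5 is the darkest column, with a median of 40.8% over the genes, and knockout replicate 2 the lightest of the knockouts, with 76.0%.

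Mki67 and Top2a, the genes most often used to score proliferating cells, fell by close to the median of the whole set. Mki67 (chromosome 7, 135689784 to 135716361), which encodes the Ki-67 protein that coats mitotic chromosomes, had 3949, 4773, 3335, 3564 and 2592 normalized counts in knockout replicates 1 to 5, against 5968, 6429, 6014 and 6259.9 in control replicates 1 to 4. The highest knockout library was below the lowest control, and the gene fell by 0.79 on the log2 scale (fold change -0.79, SE 0.136, adjusted p = 0.000806). Top2a (chromosome 11, 98992943 to 99024189) encodes topoisomerase II alpha, which untangles sister chromatids. It had 5321, 6448, 4608, 4474 and 2798 normalized counts in the knockouts, against 7883, 8277, 8459 and 9028 in the controls (-0.88, SE 0.192, adjusted p = 0.00534). Per kilobase of annotated exon, Top2a was the most abundant of the 50 genes, with a level of 525 normalized counts in knockout and 933 in control. Cdc20, Ube2c and Mki67 came next in both groups, and Cenpk was the least abundant with 13.2 in knockout and 27.8 in control. These ranks at both ends of the scale were the same in the 2 groups. The length used merges all annotated exons of a gene, which can be longer than its transcripts. The ranks between genes therefore depend in part on the annotation.

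Cyclins and the kinases and phosphatases of mitotic entry fell together, 8 of 8, with log2 fold changes from -0.96 to -0.60. Ccna2 (chromosome 3, 36564865 to 36572150), cyclin A2 of S and G2 phase, changed most, with 1192, 1397, 1107, 1023 and 667 normalized counts in knockout and 1909, 1939.8, 2132 and 2187 in control (-0.96, SE 0.171, adjusted p = 0.00138). Ccnb2, the cyclin B2 partner of Cdk1, had 543, 613, 526, 395 and 306 in knockout and 929.9, 755, 934 and 843 in control (-0.90, SE 0.178, adjusted p = 0.00270). For both cyclins the knockout and control libraries did not overlap, and knockout replicate 5 was lowest. Cdk1 (chromosome 10, 69335146 to 69352938), the kinase that drives entry into mitosis, had 813, 946, 823, 636 and 475 normalized counts in knockout and 1273, 1267, 1191 and 1466 in control (-0.85, SE 0.170, adjusted p = 0.00274). The smallest change of this role was in Cdc25b, a phosphatase that activates Cdk1, which averaged 569.8 ± 89.4 in knockout and 855 ± 28.3 in control (SD, n = 5 and n = 4). Its libraries still separated, at 436 to 678 in knockout and 822 to 891 in control (-0.60, SE 0.111, adjusted p = 0.00110). Between these lay Plk1 (-0.81), the Polo-like kinase of spindle assembly, Ccnb1 (-0.77), Aurka (-0.73), the Aurora kinase of the spindle poles, and Cdc25c (-0.68).

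**Figure D2:**
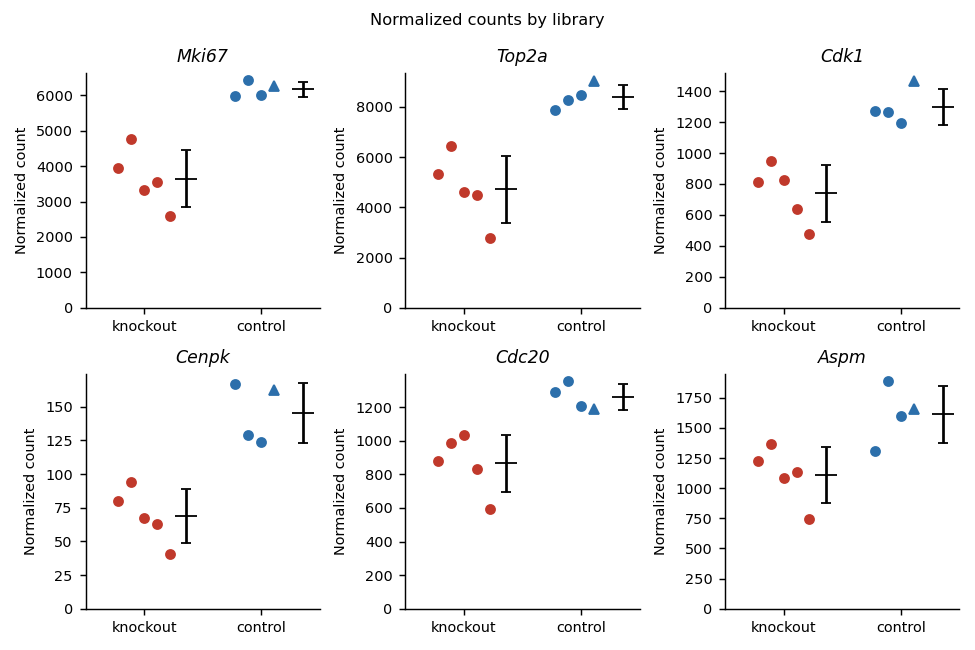
Normalized count of 6 mitotic genes in each library, knockout on the left of each panel and control on the right, with the mean and SD (n = 5 and n = 4) beside the points; the triangle is control replicate 4, with 1 floxed allele. Groups separate for Mki67, Top2a, Cdk1, Cenpk and Cdc20 and overlap for Aspm, where control replicate 1 is at 1311 and knockout replicate 2 at 1366.

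The chromosomal passenger complex, which corrects wrong attachments and then marks the cleavage plane, was lower in all 4 of its measured subunits. Cdca8 (borealin) had 788, 956, 760.3, 554 and 551 normalized counts in knockout and 1334, 1247, 1364 and 1421 in control (log2 fold change -0.92, SE 0.146, adjusted p = 0.000539). Aurkb, its kinase, had 566, 707, 599.8, 485 and 367 in knockout and 1021, 948, 1048 and 994 in control (-0.91, SE 0.150, adjusted p = 0.000694). Neither gene had overlapping groups. Birc5 (survivin) changed least of the 4, with 485, 548, 567, 423 and 334 in knockout and 818, 708, 743 and 815 in control (-0.73, SE 0.136, adjusted p = 0.00118), and the scaffold subunit Incenp was next to it at -0.74.

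Centromere and kinetochore genes held the 2 largest changes of the whole set, in Cenpk and Cenph. All 9 fell, with a median of -0.94, and 3 of the 4 genes with a log2 fold change of -1 or lower were in this role, namely Cenpk, Cenph and Spc25. Such a change with an adjusted p under 0.05 was seen in 1.86% of all genes tested. Whether this role changed more than the others was not tested. Cenpk (chromosome 13, 104228611 to 104252392), a subunit of the inner kinetochore network that sits on centromeric chromatin, had 80.1, 94.2, 67.2, 63.1 and 40.3 normalized counts in knockout, against 167, 129, 124 and 162 in control (-1.11, SE 0.207, adjusted p = 0.00128). Cenph (chromosome 13, 100759674 to 100775899), a subunit of the same network, had 153, 169, 105, 90.9 and 60.5 in knockout and 239.5, 196, 244 and 239 in control (-1.07, SE 0.258, adjusted p = 0.00872). Knockout replicates 3, 4 and 5 were the low ones for both genes, and neither gene overlapped between groups.

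The 4 subunits of the NDC80 complex, the rod that binds the end of a spindle microtubule, changed by nearly the same amount: Spc25 by -1.0, Ndc80 by -0.95, Spc24 by -0.94 and Nuf2 by -0.94. Cenpe, a kinesin of the outer kinetochore that carries chromosomes to the metaphase plate, and Cenpf, a large kinetochore protein, were at -0.78 each. Cenpa, the histone H3 variant that marks the centromere, changed least of the role. It had 951, 1216, 1062, 858 and 719 normalized counts in knockout and 1504, 1435, 1652 and 1481 in control (-0.68, SE 0.127, adjusted p = 0.00117), again with no overlap.

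Genes grouped here under the spindle checkpoint and its release were lower in 8 of 8 cases. Mad2l1, which encodes the MAD2 protein that holds back Cdc20, had 453, 477, 328, 322 and 229 normalized counts in knockout and 656, 657, 643 and 747 in control (log2 fold change -0.95, SE 0.183, adjusted p = 0.00234). Bub1, a checkpoint kinase of the kinetochore, had 498, 620.2, 507, 475 and 320.4 in knockout and 853, 809, 883 and 1005 in control (-0.90, SE 0.152, adjusted p = 0.000806). Both genes separated the groups. The checkpoint kinase Ttk (MPS1) was at -0.85, Bub1b (BUBR1) at -0.82 and Bub3 at -0.72. Cdca3, listed with this group though not itself a checkpoint gene, was at -0.81. On the side of anaphase, Ube2c, the ubiquitin-conjugating enzyme of the anaphase-promoting complex, was at -0.69. Cdc20 (chromosome 4, 118432901 to 118437352), its activator, had 879, 987, 1032, 834 and 594 normalized counts in knockout and 1291, 1358, 1207 and 1189 in control. Its log2 fold change of -0.57 (SE 0.135, adjusted p = 0.00568) was smaller than that of every other gene of the 50 but Aspm. Its libraries did not overlap. Cdc20 and Birc5 were the 2 genes for which knockout replicate 3, not 2, was the highest knockout.

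All 10 mitotic kinesins, motors that slide, sort or depolymerize microtubules, were lower, from -1.03 to -0.61. Kif15 (chromosome 9, 122951046 to 123018733), which helps keep spindle poles apart, had 559.8, 703, 545, 471 and 316 normalized counts in knockout and 944, 968, 1055 and 1146 in control (-1.03, SE 0.185, adjusted p = 0.00161). Kif18a, which dampens chromosome movements at the plate, had 217, 284, 238, 175 and 116 in knockout and 364, 363, 332 and 389 in control (-0.87, SE 0.210, adjusted p = 0.00811). Neither overlapped. Kif14, a kinesin of the midbody, had 299, 386, 294, 252 and 211 in knockout and 334, 512, 454 and 445 in control (-0.61, SE 0.164, adjusted p = 0.0119). Here the groups overlapped, since knockout replicate 2 was above control replicate 1. In order of the change the others were Kif11 (-0.82), the bipolar motor Eg5, the chromokinesin Kif4 (-0.80), Kif23 (-0.73) of the centralspindlin complex, Kif20a (-0.73) of the central spindle, the depolymerase Kif2c (-0.71), the chromokinesin Kif22 (-0.71) and Kif20b (-0.65). Against control replicates 2 and 3 alone, 3 of these kinesins did not pass, Kif18a (adjusted p = 0.0943), Kif20b (0.0932) and Kif20a (0.0597), and Kif20b also did not pass without control replicate 4 (0.0526). Kif20a shares 29.3% of its exonic length with Cdc23 on the opposite strand, which averaged 932 ± 55.0 in knockout and 971 ± 43.3 in control (SD, n = 5 and n = 4). No source used here says whether strand was used in the counting, and without it reads of the shared stretch cannot be told apart.

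Spindle assembly factors and cytokinesis genes gave the same picture, 5 of 5 and 4 of 4. Ckap2l (chromosome 2, 129268210 to 129297212), a spindle protein of neural progenitors also called radmis, had 725, 842, 653, 665 and 492 normalized counts in knockout and 1084, 1153, 1165 and 1206 in control (-0.79, SE 0.124, adjusted p = 0.000396). Tpx2, which activates Aurora A on the spindle, had 1678, 2003, 1574, 1429 and 1153 in knockout and 2578, 2481, 2692 and 2711 in control (-0.76, SE 0.127, adjusted p = 0.000576). The groups did not overlap for these, and Nusap1 (-0.75) and Hmmr (-0.68) were close to them. Aspm (chromosome 1, 139454772 to 139494091), a spindle pole protein whose loss causes microcephaly, had the smallest change of all 50. It had 1227, 1366, 1084, 1138 and 746 normalized counts in knockout and 1311, 1889, 1602 and 1656 in control (-0.55, SE 0.158, adjusted p = 0.0172). Control replicate 1 was its low control and overlapped with knockout replicate 2, and the gene did not pass without control replicate 2 (adjusted p = 0.0502).

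Among the cytokinesis genes, Ect2, the exchange factor that activates RhoA at the equator, had 724, 862, 652, 663 and 452 normalized counts in knockout and 1136, 1166, 1223 and 1333 in control (-0.88, SE 0.146, adjusted p = 0.000682). Prc1, the bundler of the central spindle, had 755, 911, 723, 646 and 465 in knockout and 1207, 1234, 1179 and 1307 in control (-0.85, SE 0.150, adjusted p = 0.00111). Racgap1, the partner of Kif23 in centralspindlin, was at -0.76. Anln, the actin-binding protein anillin, had 369.9, 428, 373, 366 and 223 in knockout and 473, 599.9, 523 and 615 in control (-0.67, SE 0.163, adjusted p = 0.00715). None of the 4 overlapped between groups.

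**Figure D3:**
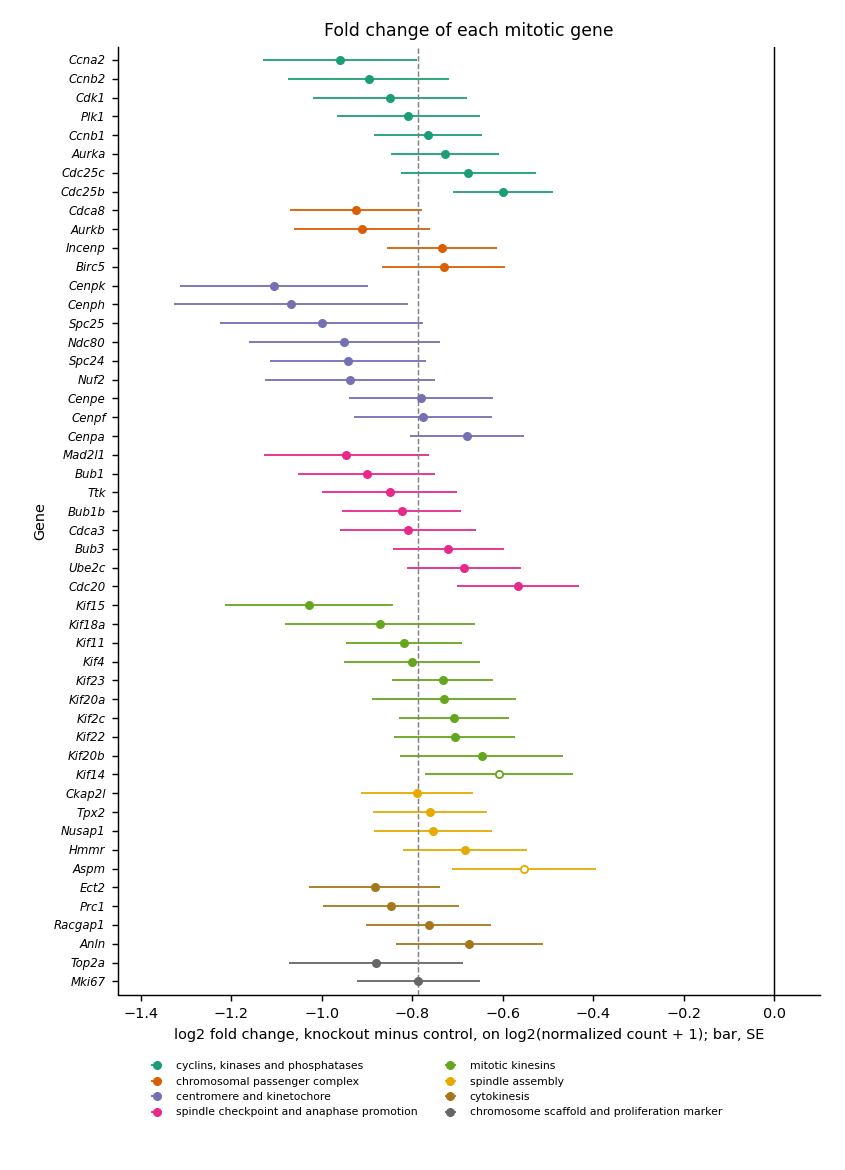
Log2 fold change (knockout minus control, on log2(normalized count + 1)) with its SE for each of the 50 mitotic genes, coloured by role; open points are the 2 genes whose groups overlap, Kif14 and Aspm, and the dashed line is the median of -0.79. Every point lies below 0, from -1.11 for Cenpk to -0.55 for Aspm.

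The log2 fold changes of the 50 genes had quartiles of -0.89 and -0.72, and their standard errors ran from 0.111 to 0.258. All 50 lay within 2 of their own SE of the median gene. These SEs hold variation between libraries that the genes share, so they do not measure how far genes differ from each other. Lying within 2 SE is therefore no sign of an equal fall. The ranks given above are of point estimates, and the order of genes or roles was not tested. Whether partners in 1 complex or pathway changed by different amounts was tested on their log2 ratio in each library, for 20 pairs, with an exact permutation test (two-sided, 126 arrangements of the group labels). By this test 0 of the 20 pairs passed after Benjamini-Hochberg adjustment over the pairs, and 4 had an unadjusted p under 0.05. The smallest p that 126 arrangements allow is 0.00794, which becomes 0.159 for a single pair among 20. Incenp relative to Aurkb reached that smallest p. Its log2 ratio was 0.62, 0.66, 0.61, 0.67 and 0.86 in the knockouts and 0.48, 0.53, 0.47 and 0.54 in the controls, without overlap, a difference of 0.18 (95% interval 0.085 to 0.310, higher in 5 of 5 knockouts, adjusted p = 0.159, exact permutation test). The other 3 were Bub3 relative to Bub1 (0.18, interval 0.030 to 0.340, exact p = 0.0317), Birc5 relative to Aurkb (0.18, 0.010 to 0.340, exact p = 0.0397) and Aurka relative to Aurkb (0.18, 0.005 to 0.385, exact p = 0.0476), each with an adjusted p of 0.238. Incenp, Birc5 and Aurka were each set against the same Aurkb values, so those pairs are not independent observations. Cdca8 relative to Aurkb differed by -0.013 (interval -0.190 to 0.180). Most even was Cenpf relative to Cenpe, with log2 ratios of 0.73 to 0.82 in knockout and 0.74 to 0.79 in control. That difference was 0.0042 (interval -0.035 to 0.045). For Nuf2 relative to Ndc80 the interval was wider, -0.210 to 0.270.

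The knockout libraries differed from each other more than the controls did, with the same libraries at both ends for nearly every gene. Knockout replicate 5 was the lowest knockout for 49 of the 50 genes, all but Ube2c, and knockout replicate 2 the highest for 48. The median gene stood at 63.0%, 76.0%, 61.3%, 53.4% and 40.8% of its control mean in knockout replicates 1 to 5, and at 97.5%, 96.9%, 100.04% and 105% in control replicates 1 to 4. The coefficient of variation had a median of 22.5% over the genes in knockout and 6.33% in control, and the SD of the log2 values was larger in knockout for all 50. Ctnnb1 itself stood at 72.3%, 77.9%, 72.6%, 66.9% and 55.7% of its control mean in knockout replicates 1 to 5, also highest in replicate 2 and lowest in replicate 5. With 5 knockouts no correlation was computed. Among the knockouts, the summed cortex markers were highest in replicate 5 (523 normalized counts) and next in replicate 4 (334). Those of choroid plexus were highest in replicate 2 (408). The part of neighbouring tissue in the differences between knockout libraries was not tested. Control replicate 4, with 1 floxed allele, was the highest control for 29 of the 50 genes. Without knockout replicate 5 all 50 genes still passed, with a median of -0.67.

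Other gene lists moved in the same libraries. All 13 replication genes were lower in knockout (median -1.03), at 59.1%, 68.9%, 46.3%, 44.1% and 33.1% of the control mean for the median gene in knockout replicates 1 to 5. Their summed level was 6063 to 12423 normalized counts in knockout and 16281 to 20025 in control. Of 11 radial glia markers, 6 were lower and 0 higher, the intermediate filament genes Nes (-1.02) and Vim (-0.90) among them. The 5 that did not pass were Sox9 (-0.39), Sox2 (-0.24), Fabp7 (0.04), Slc1a3 (0.23) and Pax6 (1.09). The summed level of the 11 was 11625 to 14409.5 normalized counts in knockout and 18399.5 to 24175.5 in control. That sum is weighted to abundant genes, above all Vim, which averaged 4353 in knockout and 8169 in control. The median radial glia gene was highest in knockout replicate 4 (77.6%), not in replicate 2 (62.9%). Of 10 markers of postmitotic neurons 8 were higher and 0 lower, with a summed level of 30278 to 39217 in knockout and 16742 to 21626.5 in control. The median neuronal gene was lowest among the knockouts in replicate 2 (150%) and highest in replicate 5 (224%), the reverse of the mitotic genes. No radial glia or neuronal marker was at 0 in any library. Of markers of cortex, choroid plexus, microglia, endothelium and red blood cells, 0 of 22 passed in either direction by limma. The 3 with an unadjusted p under 0.05 were microglial and lower in knockout, Cx3cr1 (-0.70), P2ry12 (-0.97) and C1qa (-0.50). Leaving out 1 library gave 0 to 3 microglial and 0 to 1 red blood cell markers lower, and 0 to 1 cortex markers higher. For cortex and choroid plexus genes the SE ran from 0.87 (Neurog2) to 1.55 (Ttr), so not passing says little there. The part of any of these lists in the mitotic result was not tested.

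**Figure D4:**
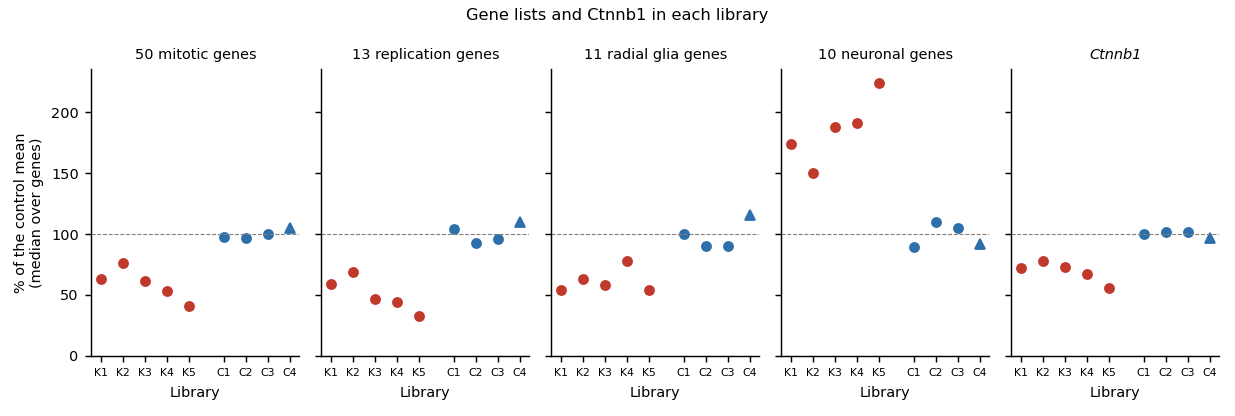
Level of 4 gene lists (median over the genes of each gene's percentage of its control mean) and of Ctnnb1 in each library; K1 to K5 are knockout and C1 to C4 control replicates, and the triangle is the control with 1 floxed allele. The 50 mitotic genes run from 40.8% to 76.0% in knockout and 96.9% to 105% in control, while neuronal genes run from 150% to 224% in knockout.

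Outside the 50, a further list of 105 mitosis genes was read in the same fit, and all 105 were tested. In this list 75 were lower and 3 higher in knockout (median -0.71), against 17.3% lower and 17.2% higher among all genes. When control replicates 2 and 3 alone were kept, 49 were lower and 3 higher. Condensin, which compacts mitotic chromosomes, was lower in 8 of 8 subunits. Its kleisin subunit Ncaph averaged 553 ± 122 normalized counts in knockout and 1022 ± 44.1 in control (SD, n = 5 and n = 4), and Ncapd2 was at -0.65. Of 34 other kinetochore genes 25 were lower and 1 higher, with Cenpm (-0.95, adjusted p = 0.000247) and Cenpn (-0.85, adjusted p = 0.000605), both inner kinetochore subunits, past the threshold by limma with the smallest p. Of 27 other spindle and centrosome genes 22 were lower and 1 higher, Gtse1 (-0.85) and the kinetochore and spindle protein Knstrn (-0.88) among the lower. All 4 other cytokinesis genes fell, including the abscission factor Cep55 (-0.76) and citron kinase, Cit (-0.65), as did all 11 other kinases and regulators, including the Cdk1 inhibitors Wee1 (-0.85) and Pkmyt1 (-0.78).

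Of 15 genes of the anaphase-promoting complex, the ubiquitin ligase that starts anaphase, 2 were lower and 13 did not pass, with a median log2 fold change of -0.14. The 2 were the inhibitor Fbxo5 (EMI1), at -0.66 (SE 0.193, adjusted p = 0.0209), and the subunit Cdc27, at -0.35 (SE 0.124, adjusted p = 0.0411). Fbxo5 was no longer past the threshold when control replicate 1, 2 or 4 was left out (adjusted p from 0.0520 to 0.0644). Against control replicates 2 and 3 alone its adjusted p was 0.179. Cdc27 did not pass without any 1 of 6 of the libraries or under the replicate block (0.0883). It also did not pass in limma without trend and robust (0.0865) or against control replicates 2 and 3 alone (0.0505). Of those that did not pass, Anapc1 had 1619 ± 108 normalized counts in knockout and 1804 ± 176 in control. Anapc2 had 1033 ± 75.3 and 952 ± 90.2, and Cdc23 was as given above (SD, n = 5 and n = 4 for each). Anapc13 was at -0.30 and Anapc5 at -0.14. Anapc5 had 2804 to 3014 in knockout and 3107 to 3451 in control, the only 1 of the 15 without overlap. Every knockout library lay below every control library for 14.6% of all genes tested.

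The 3 genes of the list that rose are named after their values were seen. Kif2a, a depolymerizing kinesin that also prunes axon branches in young neurons, had 743, 648, 689, 779 and 761 normalized counts in knockout and 493, 559, 562 and 579.9 in control, without overlap (0.40, SE 0.0884, adjusted p = 0.00338). Zwint, a kinetochore protein that is also found in neurons, had 1316 ± 79.9 in knockout and 1119 ± 90.3 in control (0.24, adjusted p = 0.0436). Zwint did not pass without any 1 of 7 of the libraries or with trimmed-mean scaling (adjusted p = 0.0559). The same held with no filter (0.0909), under the replicate block (0.0634) and in limma without trend and robust (0.0706). Lin37, a subunit of the DREAM and MuvB complexes, rose by 0.48 (SE 0.142, adjusted p = 0.0177), with 122, 111, 119, 99.5 and 123 in knockout and 105, 71.5, 81.4 and 73.7 in control, where control replicate 1 overlapped. It did not pass without control replicate 2 (adjusted p = 0.0505) or 4 (0.0573).

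**Figure D5:**
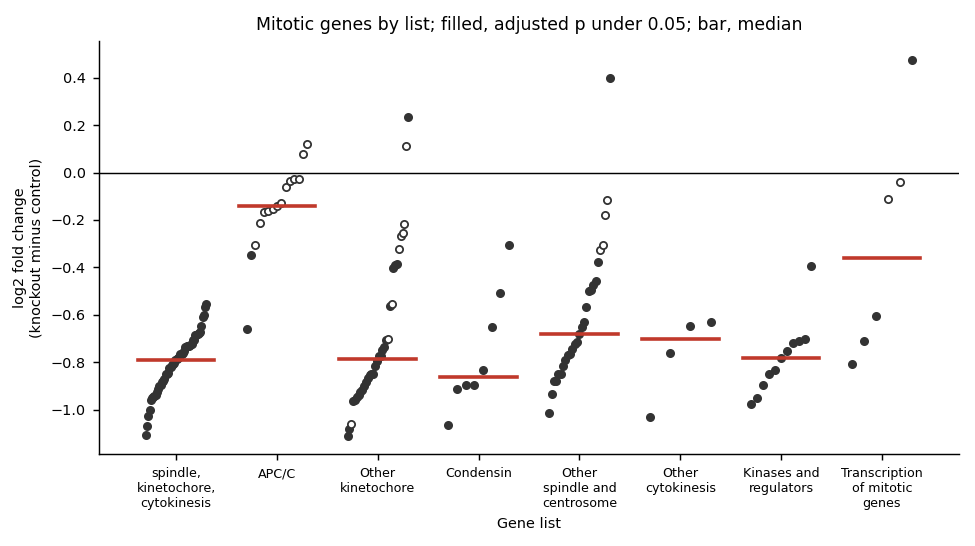
Log2 fold change (knockout minus control) of the 50 mitotic genes (leftmost list) and of the 105 other mitosis genes by subgroup; APC/C is the anaphase-promoting complex, filled points passed at an adjusted p of 0.05 and bars are medians. The bar is at -0.79 for the 50 genes and -0.14 for the anaphase-promoting complex, where 2 of 15 points are filled.

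Of 6 genes for the transcription of mitotic genes 3 were lower and 1, Lin37, higher. Mybl2, which encodes B-MYB, had 252, 309.6, 226, 176 and 192 normalized counts in knockout and 398, 356, 416 and 421 in control (-0.81, SE 0.143, adjusted p = 0.000838). Foxm1 had 1061, 1385, 931, 887 and 789.9 in knockout and 1493, 1737, 1783 and 1503 in control (-0.71, SE 0.138, adjusted p = 0.00164). Neither overlapped between groups. Of the MuvB subunits, which bring B-MYB or the DREAM repressor to DNA, Lin54 was lower (-0.60, adjusted p = 0.00302), and Lin9 (-0.11) and Lin52 (-0.04) did not pass.

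Promoters were examined because the 50 genes moved together and because MuvB binds a short element, the cell cycle genes homology region, often placed near CCAAT boxes. RefSeq promoter windows (GRCm38.p6) matched 43 of the 50 genes, and Aurkb, Incenp, Ccna2, Tpx2, Spc24, Kif20a and Cdc25c had none listed. In the 250 bases upstream of a listed start, TTTGAA or TTCGAA on either strand was found for 16 of the 43 genes, 37.2%, against 32.6% of 89 other mitosis genes and 14.1% of 9825 genes tested with a listed window. Counting only matches in the 100 bases next to the start, it was 11 of 43, 25.6%, against 18% of the other mitosis genes and 4.47% of the genes tested. CCAAT on either strand was found for 32 of 43, 74.4%, against 53.9% and 40.8%, and both kinds for 14 of 43, 32.6%, against 20.2% and 5.56%, of the same sets in the same order. A gene with more than 1 listed start counts if any window holds the match. The 4 members with both kinds of match and the smallest p in the limma fit are printed 5′ to 3′ on their own strand, ending at the base before the start, with these letters in capitals. TTCAAA and ATTGG are the same elements read on the other strand. The windows are chr2:129297213-129297462 (minus strand), chr19:37376132-37376381 (plus), chr2:118597961-118598210 (plus) and chr7:131560120-131560369 (plus).
Ckap2l: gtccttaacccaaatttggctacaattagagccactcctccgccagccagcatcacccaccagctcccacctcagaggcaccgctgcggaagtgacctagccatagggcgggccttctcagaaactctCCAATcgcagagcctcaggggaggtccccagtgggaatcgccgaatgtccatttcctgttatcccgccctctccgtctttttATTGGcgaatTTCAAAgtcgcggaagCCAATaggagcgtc
Kif11: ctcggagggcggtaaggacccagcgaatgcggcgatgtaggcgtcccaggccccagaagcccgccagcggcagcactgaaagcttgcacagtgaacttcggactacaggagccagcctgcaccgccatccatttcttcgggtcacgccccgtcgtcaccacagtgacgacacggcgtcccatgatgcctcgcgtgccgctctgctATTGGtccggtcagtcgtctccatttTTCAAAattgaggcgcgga
Bub1b: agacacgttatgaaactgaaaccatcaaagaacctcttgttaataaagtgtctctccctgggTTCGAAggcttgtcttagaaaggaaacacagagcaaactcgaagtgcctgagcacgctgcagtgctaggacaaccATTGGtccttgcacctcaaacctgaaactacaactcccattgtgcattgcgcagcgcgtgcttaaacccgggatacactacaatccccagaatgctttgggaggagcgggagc
Bub3: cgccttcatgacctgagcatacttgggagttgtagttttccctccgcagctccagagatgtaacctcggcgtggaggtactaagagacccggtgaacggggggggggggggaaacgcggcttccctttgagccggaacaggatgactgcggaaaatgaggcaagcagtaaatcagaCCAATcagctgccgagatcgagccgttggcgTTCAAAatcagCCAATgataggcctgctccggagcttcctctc
In Ckap2l, Kif11 and Bub3 the element begins 30, 19 and 43 bases before the start, with a CCAAT match (on the other strand in the first pair of genes) upstream of it, beginning 40, 45 and 74 bases before the start. In Bub1b both lie farther up, with TTCGAA beginning 188 bases and ATTGG 113 bases before the start. The Ckap2l element is followed by a G, and with that base it reads CTTTGAA on the other strand, which also matches the core bound by TCF/LEF factors, the DNA-binding partners of beta-catenin. That longer run was found for 4 of the 43 genes, 9.30%, against 3.37% (3 of 89) of the other mitosis genes, 3.72% of the genes tested with a listed window and 5.19% of all 27025 genes with one. The other 3 were Cdk1, Kif14 and Kif15. CTTTGAA contains TTTGAA, so each gene with the longer run is already counted with the shorter element. The longer run was held by 4 of the 16 members with the shorter element. Among genes tested with a listed window it was held by 365 of 1382. The share of the longer run is therefore not separate from that of the shorter element. A match describes these letters only and shows no binding.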

How the data were processed

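RNA was measured in 9 MGE libraries (5 knockout, 4 control), each from 500 ng of RNA (NEBNext Ultra, per the labels' protocols). The authors deposited 1 signal value per gene and library. All values of a library are whole multiples of 1 step (within 0.01 of a whole number), as scaling of read counts by a size factor leaves them, and the totals given are those whole numbers summed. The submitters' processing notes name mm10, DESeq2, R 3.4.0, HTSeq 0.9.1 and TopHat2 2.1.1. No source used here gives their roles, the annotation or the strand setting. No count model was fitted, because the automated unit check did not accept recovered reads.

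Here, limma 3.58.1 (trend and robust, R 4.3.3) was fitted to log2(value + 1) of 13780 genes with a mean of at least 10, two-sided, adjusted by Benjamini-Hochberg, threshold 0.05. Errors beside means are SD and those beside fold changes SE. Fold changes on this scale understate the change of low genes. The procedure was tested on simulated data with 200 genes set to change. At simulated log2 changes of -1 and 1 it recovered 79.2% and 78% of the changed genes, and 8 of its 177 calls were false. In the real data 34.5% of genes were called, so the simulated setting differs from them. Pair intervals invert the exact permutation test in steps of 0.005. Symbols, positions and exon lengths are from GENCODE M21 (same build as mm10), and 48058 of 48526 identifiers matched. Exons of 15 members overlap those of a gene on the opposite strand. The members, gene lists, pairs and alternatives were chosen with earlier results of these data known. Named in full are, per role, the 2 members with the largest and the 1 with the smallest change, plus Mki67, Top2a and Cdk1; of the other mitosis genes, up to 2 per subgroup with the smallest p, plus Foxm1 and Mybl2; genes outside this were chosen after their values were seen. Alternatives were other pseudocounts, filters, scalings, limma settings, library weights, a replicate block, and left-out libraries.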

Additional observations from a re-analysis of the deposited data

Results flagged for a closer look

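In 140 groups of values, 100 of member levels and 40 of pair ratios, 6 held 1 library far from the others by Dixon's test, and chance alone flags about 1 in 20. Cenph was low in control replicate 2 at 196 normalized counts, and Mad2l1 was high in control replicate 4 at 747. The log2 ratio of Incenp to Aurkb was high in knockout replicate 5 at 0.86. Among controls, the log2 ratio of Cdc25b to Cdc25c was high in replicate 2 at 1.60, that of Cdca8 to Aurkb was high in replicate 4 at 0.51, and that of Cenph to Cenpk was high in replicate 3 at 0.98.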

How the results depend on the processing

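All 50 mitotic genes kept a negative log2 fold change under all 19 alternatives, and 49 or 50 passed under each except the fit against control replicates 2 and 3 alone (37). In that fit 1108 of all genes were lower and 1370 higher, and 49 other mitosis genes were lower. Leaving out 1 library gave 49 to 50 mitotic genes lower, 64 to 79 other mitosis genes lower and 1 to 3 higher (1 without control replicate 2), and medians of the 50 from -0.89 to -0.67. The replicate numbers share no stated origin: same-numbered libraries correlated at -0.12 to 0.14 in their deviations, and 0 of 4 controls correlated best with its own number. With the replicate block, in which knockout replicate 5 has no partner, 50 members passed (median -0.67), 1681 of all genes were lower and 1829 higher, and 74 other mitosis genes were lower. Scaling moved the median of all genes by less than 0.1. Pair differences that were near 0 changed sign. With control replicates 2 and 3 only they were 0.0185 (Cdca8/Aurkb), -0.0866 (Cenph/Cenpk), -0.0126 (Cenpf/Cenpe) and -0.0431 (Kif23/Racgap1), and with the replicate block -0.0214 (Nuf2/Ndc80) and -0.0071 (Cenpf/Cenpe). Over left-out libraries they ran from -0.0345 to 0.04996 (Nuf2/Ndc80), -0.0193 to 0.143 (Cenph/Cenpk), -0.0576 to 0.0411 (Cdca8/Aurkb), -0.0068 to 0.0736 (Kif23/Racgap1), -0.0075 to 0.0146 (Cenpf/Cenpe) and -0.0049 to 0.0672 (Aurka/Tpx2). The cause of these shifts was not tested. That no pair passed under these alternatives says nothing about stability, since the lowest p possible was 0.125 with the block and 0.0476 against control replicates 2 and 3 alone, before adjustment. Standard errors were widest for Cenph (0.258) and Spc25 (0.224).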
